A study of Danio rerio with 4 samples.

Results

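Sox2-only loci are genomic positions where chromatin immunoprecipitation followed by sequencing (ChIP-seq) of zebrafish embryos listed a Sox2 interval and no overlapping interval of Flag-tagged Pou5f1. They were chosen from the authors' deposited interval lists. Intervals overlapping any Input chromatin interval by 1 bp were set aside, overlapping intervals of the 3 ChIP lists were merged into loci, and loci holding Sox2 intervals alone were kept. This left 4089 Sox2-only loci among 5914 Sox2 loci and 16960 loci in all. Each of the 4089 consisted of 1 Sox2 interval. The lists themselves chose these loci, so their number and their lack of an overlapping Pou5f1-Flag interval are a description and not a finding.

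The Sox2 sample was made with an anti-Sox2 antibody from 20000000 nuclei of wild-type late blastula embryos. The Pou5f1-Flag samples were made with an anti-FLAG antibody from MZspg embryos, that is, maternal-zygotic spiel ohne grenzen mutants that lack functional Pou5f1, into which Pou5f1-Flag mRNA had been injected at the 1-cell stage, per the labels in an amount that was just enough for rescue. Late blastula embryos gave 20000000 nuclei for this precipitation and 512-cell embryos gave 2000000. Input chromatin came from wild-type late blastula embryos. Each group was 1 sample, so nothing below has a replicate check. Genotype, injection and antibody differ together between the Sox2 sample and the Pou5f1-Flag samples and cannot be told apart from the factor. The only Input list analysed here is that of wild-type late blastula embryos. An interval missing from a list is an interval that the authors did not list, not a measurement of 0 reads.

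Sox2 belongs to the SoxB1 group of transcription factors, which bind DNA through an HMG domain, bind many of their sites beside a partner factor, and maintain neural progenitors. Zebrafish Pou5f1, now also called Pou5f3, is a relative of mammalian Oct4 and can bind next to a SoxB1 factor on a joint Sox and Pou site. Pou5f1 and the SoxB1 factor Sox19b are supplied by the mother and take part in the activation of the zygotic genome, whereas Sox2 is made by the embryo.

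The Sox2 list held 6129 intervals, of which 205 overlapped Input. The late blastula Pou5f1-Flag list held 7130, of which 460 overlapped Input, and the 512-cell list held 7747, of which 174 did. The reads inside intervals summed to 742542, 841679 and 564835 for these lists, and to 966327 over the 1901 Input intervals. These sums are not library depths, which are unknown here. The Sox2-only loci made up 69.1% of the Sox2 loci (exact binomial 95% interval 67.9 to 70.3). This interval and those below cover counting error alone, over loci that are not replicates. Of the other 1825 Sox2 loci, 1274 held a late blastula Pou5f1-Flag interval, 177 a 512-cell one and 374 both. Of the Sox2-only loci, 8 did overlap a Pou5f1-Flag interval that had been set aside because it overlapped Input, so the name holds for Input-free intervals.

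Most Sox2-only loci were weak, and the strongest Sox2 loci nearly all held a Pou5f1-Flag interval. Sox2-only loci had a median of 52 reads per Sox2 interval (lowest 8, highest 573), against 107 reads (19 to 955) in Sox2 loci with a Pou5f1-Flag interval. The middle part of the Sox2-only loci, between the lower and upper quartiles, ran from 37 to 81 reads, and 651 of them (15.9%) had 100 reads or more. The ranges overlapped over most of their length. None of the 20 Sox2 loci with most reads was Sox2-only, and the top 50 and top 100 held 4 and 7 Sox2-only loci. Among the 500 strongest there were 101 Sox2-only loci (20.2%), and among the 1000 strongest there were 313 (31.3%). The strongest Sox2-only locus ranked 28th.

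**Figure D1:**
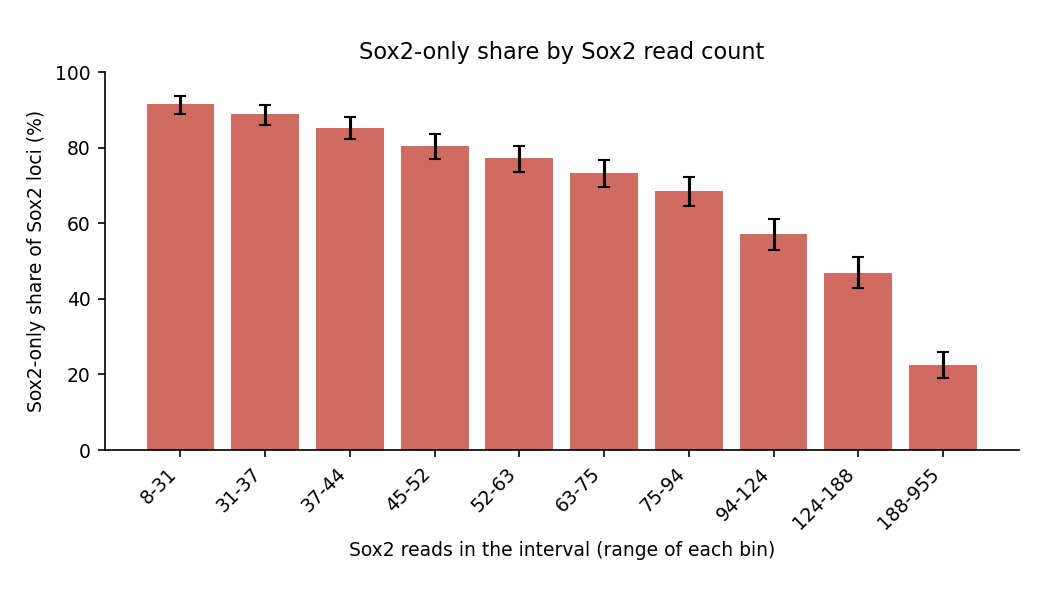
Share of Sox2 loci that are Sox2-only (vertical axis, percent) in 10 bins of Sox2 loci ordered by reads in the Sox2 interval (horizontal axis, range of each bin), with exact binomial 95% intervals over loci as bars. The share was 91.6% in the weakest bin and 22.5% in the strongest, and it was lower in each bin than in the one before.

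With the Sox2 loci split into 10 bins by read count, the Sox2-only share was 91.6% (89.0 to 93.7, 542 of 592 loci) in the weakest bin of 8 to 31 reads. It was 77.2% (73.6 to 80.5) in the bin of 52 to 63 reads and 46.9% (42.8 to 51.0) in that of 124 to 188 reads. In the strongest bin, of 188 to 955 reads, it was 22.5% (19.2 to 26.0, 133 of 592 loci). The share was thus lower in each bin than in the bin below it. Reads per interval move with depth and with the authors' calling, and their part in this relation was not tested.

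The other values that the authors gave per interval differed in the same direction. The median false discovery rate was 0.0891% in Sox2-only loci and 9.86e-06% in Sox2 loci with a Pou5f1-Flag interval, and a rate of at most 1% was listed for 3081 (75.3%) and 1702 (93.3%) of them. The median Wilcoxon filter p-value of the authors was 1.10e-05 in Sox2-only loci and 1.28e-09 in loci with a Pou5f1-Flag interval. Sox2 intervals were narrower in Sox2-only loci, with a median of 312 bp against 424 bp. Forward and reverse reads were less even there, with a median normalized difference of 0.114 (a fraction of the interval's reads) against 0.0814. Within the 10 read bins the median widths differed by at most 10 bp, with Sox2-only loci narrower in 4 bins and wider in 5. At matched read counts the widths were thus close. The median strand differences differed by up to 0.0311 within a bin, and that of Sox2-only loci was the lower one in 4 of 10 bins. False discovery rates and p-values were not compared within bins.

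Sox2-only loci also lay farther from Pou5f1-Flag intervals than the other Sox2 loci did from their next, non-overlapping one. The distance was taken between nearest ends, to either stage's Input-free list. Its median was 25.8 kb for Sox2-only loci (quartiles 6.89 and 66.5 kb, highest 691 kb), against 9.31 kb (2.45 and 38.3 kb) for Sox2 loci with a Pou5f1-Flag interval. Within 10 kb of such an interval lay 1274 Sox2-only loci (31.2%, 29.7 to 32.6), against 935 of the others (51.2%, 48.9 to 53.6). Within 1 kb the counts were 227 (5.55%) and 212 (11.6%). More than 100 kb away lay 633 Sox2-only loci (15.5%) and 167 loci with a Pou5f1-Flag interval (9.15%). The rule bars an overlap for one group and requires it for the other. It did not use the distance to further intervals, but split the loci by the same Pou5f1-Flag intervals to which that distance was taken. Where such intervals cluster, loci chosen for holding one lie nearer to the next. The difference in distance is therefore a description that does not stand apart from the rule. The order held in 10 of 10 read bins, where the medians ran from 18.5 to 30.3 kb for Sox2-only loci and from 6.26 to 14.9 kb for the others.

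The nearest Pou5f1-Flag interval was about as often of one stage as of the other, late blastula for 2016 Sox2-only loci (49.3%, 47.8 to 50.8) and 512-cell for 2073. Among Sox2 loci with a Pou5f1-Flag interval it was of late blastula for 57.4% (55.1 to 59.7). Taken list by list, the median distance was 56.3 kb from Sox2-only loci and 18.4 kb from the others to a late blastula interval, and 51.3 and 32.5 kb to a 512-cell interval. Sox2-only loci were also more scattered among themselves and other Sox2 loci. Their nearest other Sox2 interval lay at a median of 28.6 kb, against 10.3 kb for loci with a Pou5f1-Flag interval, and within 10 kb for 34.9% against 49.6%. The distance between Sox2 intervals was not compared at matched read counts. An Input interval lay within 10 kb of 97 Sox2-only loci (2.37%) and of 34 of the others (1.86%).

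**Figure D2:**
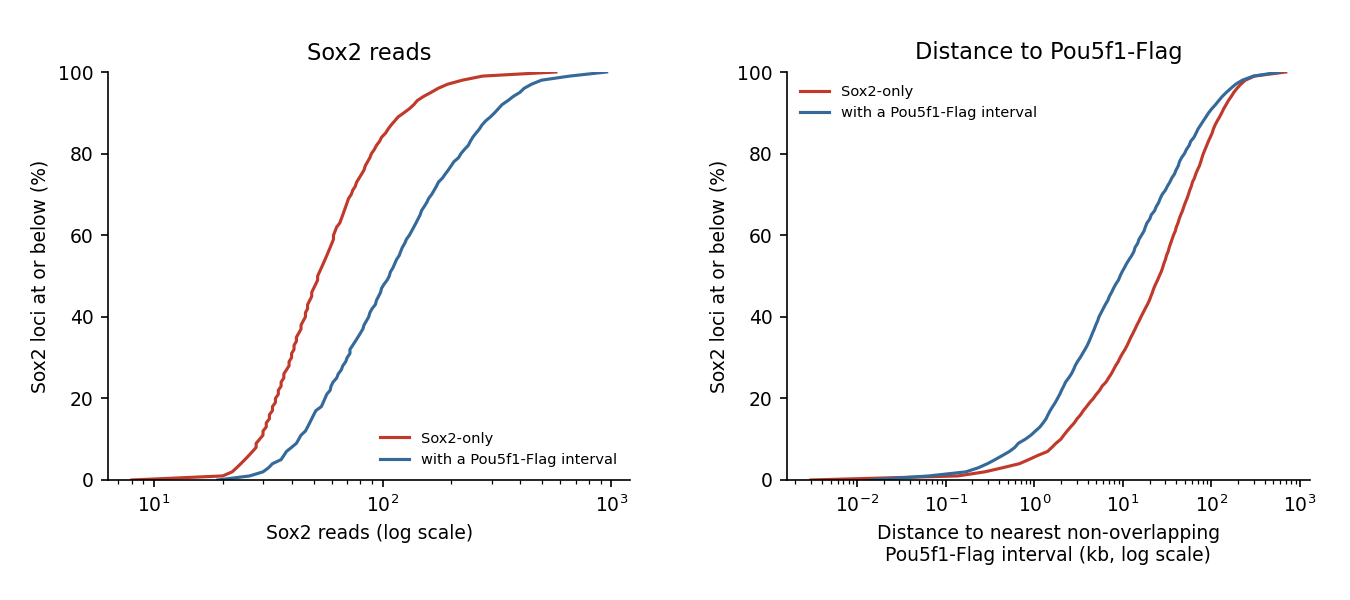
Cumulative share of Sox2 loci (vertical axes, percent) by reads in the Sox2 interval (left, log scale) and by distance to the nearest non-overlapping Pou5f1-Flag interval of either stage (right, kb, log scale), for Sox2-only loci and Sox2 loci with a Pou5f1-Flag interval. The medians are 52 and 107 reads on the left and 25.8 and 9.31 kb on the right, and 1 locus with no other interval on its chromosome is left out on the right.

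Few loci sat at the edge of the rule. A Pou5f1-Flag interval lay within 100 bp of 29 Sox2-only loci (median 59 reads), and 34 Sox2 loci were kept out by an overlap of at most 100 bp (median 48.5 reads), where the median overlap was 300 bp. The Sox2-only locus closest to a Pou5f1-Flag interval lay beside sox2 itself, between sox2 and dnajc19 (chromosome 22, 40389602 to 40390077, 230 reads). A 512-cell interval of 48 reads lay 3 bp away. This was 1 of 3 Sox2-only loci among the 7 Sox2 loci beside sox2, and the strongest of the other 4 had 443 reads. The next closest were beside dtx2 and lig3 (27 Sox2 reads, 4 bp), NM_001033094 and dhrs3b (68 reads, 5 bp), zgc:112234 and zgc:163040 (48 reads, 5 bp) and prickle1b and pus7l (28 reads, 6 bp). Just outside the rule, the smallest overlaps were beside sh3gl2a (71 Sox2 reads, 4 bp), arcn1b (82 reads, 6 bp), si:rp71-45k5.2 (48 reads, 6 bp), robo3 (66 reads, 8 bp) and foxn2b (125 reads, 15 bp).

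All coordinates are Zv9, counted from 1, and a locus is named by its 2 flanking genes in the Sox2 list, lower coordinate first. A flanking gene is the one listed next to the interval, which can be far away, and it is not known to be regulated from there. The position of loci within exons or introns was not analysed here.

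The strongest Sox2-only locus lay between cyth4b and plxna1b, a semaphorin receptor (573 reads, 291 forward and 282 reverse, chromosome 6, 979378 to 980167), with a late blastula Pou5f1-Flag interval 1.51 kb away. Next came loci between smarcd3b, a subunit of SWI/SNF chromatin remodellers, and plxdc2b (505 reads, chromosome 7, 44345849 to 44346518), and between nr5a1a, a nuclear receptor, and fgf17, an Fgf ligand (494 reads, chromosome 8, 54923873 to 54924476). They were followed by ccnh and tmem161b (479 reads, chromosome 5, 49778413 to 49779072) and by paqr5b and tle3b, a Groucho co-repressor (473 reads, chromosome 7, 34959118 to 34959982). The nearest Pou5f1-Flag intervals lay at 6.09, 19.6, 91.9 and 28.2 kb from these 4 loci. None of the 5 thus had one within 1 kb.

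Hes-related repressors, which hold back neuronal differentiation, stood at ranks 8 and 9 of the Sox2-only loci. A locus between noc2l and her9 had 376 reads (chromosome 23, 23593425 to 23594160) and one between her8a and tm4sf21b had 373 (chromosome 7, 27563766 to 27564415). The her9 locus was 60.7 kb from a Pou5f1-Flag interval and the her8a locus 1.11 kb. Homeobox genes flanked others of the 20 strongest Sox2-only loci: lbx1b beside gli1, a Hedgehog effector (365 reads), uncx4.1 (347 reads), vax2 of the ventral eye (330 reads) and six3a of the forebrain (318 reads, 0.982 kb from a 512-cell interval). Signalling genes were spry2, a feedback inhibitor of Fgf signalling (336 reads), lrp5, a Wnt co-receptor (327 reads), and npr3, a natriuretic peptide receptor (327 reads). The remaining loci lay beside dre-mir-99-2 and usp25 (414 reads), prkg2 and rasgef1ba (405), adgrl4 and ttll7 (367), trmt9b and mab21l1 (338), snrpe and etnk2 (337), and gnrhr2 and tcf12 (326).

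Among the 633 Sox2-only loci more than 100 kb from any Pou5f1-Flag interval, the strongest lay beside tox2 (295 reads, 110 kb away, chromosome 6, 57718887 to 57719421). A locus between tex261 and vax2 had 294 reads and lay 115 kb away. One beside nr2f2, a nuclear receptor of the COUP-TF group, had 283 reads and lay 203 kb away (chromosome 18, 24272333 to 24272897). The other 2 of the 5 strongest were beside ppp2cb and ubxn8 (273 reads, 103 kb) and zgc:171490 and gpd1b (247 reads, 170 kb). Read counts of this size are above the 124 reads that 90% of Sox2-only loci did not exceed. Choosing the strongest among 633 loci favours this, and the read counts of all 633 were not compared.

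Most flanking genes of Sox2-only loci, as of all Sox2 loci, were also flanking genes of Pou5f1-Flag intervals. The Sox2 loci named 4950 genes, and 4193 of these (84.7%) had a Sox2-only locus, 2379 of them 1, 1533 from 2 to 4, and 281 at least 5. For 2738 genes (55.3%) all Sox2 loci were Sox2-only, many of them genes with a single locus. Of the 1448 genes with at least 3 Sox2 loci, 324 had Sox2-only loci alone. No Input-free Pou5f1-Flag interval of either stage named 772 of the 4950 genes (15.6%), and 767 of these were among the genes with a Sox2-only locus. The 767 is nearly fixed by the rule. A gene that no such interval names can have another kind of Sox2 locus only where the lists name flanks otherwise. The 512-cell list names flanking genes partly otherwise than the Sox2 list. Where flanks could be compared, both genes were the same for 407 of 571 Sox2-only loci. Against the late blastula list they were the same for 885 of 886. A gene missing from the 512-cell list can thus be one that this list names otherwise. Counted by locus, 1658 Sox2-only loci (40.5%, 39.0 to 42.1) lay between the same gene pair as a Sox2 locus with a Pou5f1-Flag interval, and 2544 (62.2%, 60.7 to 63.7) between a pair that the late blastula Pou5f1-Flag list also named. These 2 shares were not set beside those of other Sox2 loci. Most genes with a Sox2-only locus thus had a Pou5f1-Flag interval listed elsewhere beside them, and so did most of all genes named by Sox2 loci. No such interval named 18.3% of the former and 15.6% of the latter, so this is not particular to Sox2-only loci.

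Genes of 14 developmental lists, which together hold 505 genes, flanked 801 Sox2-only loci (19.6%, 18.4 to 20.8), against 460 Sox2 loci with a Pou5f1-Flag interval (25.2%, 23.2 to 27.3) and 21.3% of all Sox2 loci. The Sox2 loci named 343 of the 505 genes. Of these 343 genes, 312 had a Sox2-only locus and 126 had no other kind. The shares over all genes named by Sox2 loci were 84.7% and 55.3%. Genes with at least 1 Sox2-only locus were thus more frequent in these lists, and genes with Sox2-only loci alone less frequent. Both shares depend on how many Sox2 loci a gene has. The 343 genes had 1261 Sox2 loci beside them, where all 4950 genes had 5914. A locus counts for both of its flanking genes, so dividing these numbers does not give comparable loci per gene. The number of loci per gene was not matched, here or for the single lists below. At matched read counts the shares of both kinds of locus had overlapping intervals in each of the 10 bins. In the weakest bin the share was 14.6% (11.7 to 17.8) of Sox2-only loci and 10.0% (3.33 to 21.8) of the others, and in the strongest 37.6% (29.3 to 46.4) and 35.3% (30.9 to 39.9). Loci of Pou5f1-Flag alone, named from their own lists, stood at 13.6% for late blastula and 11.1% for the 512-cell stage. The 512-cell list names flanking genes partly otherwise than the Sox2 list, so its 11.1% rests on an unlike naming. With genes whose loci span over 2 Mb left out, the share of Sox2-only loci was 20.6%.

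**Figure D3:**
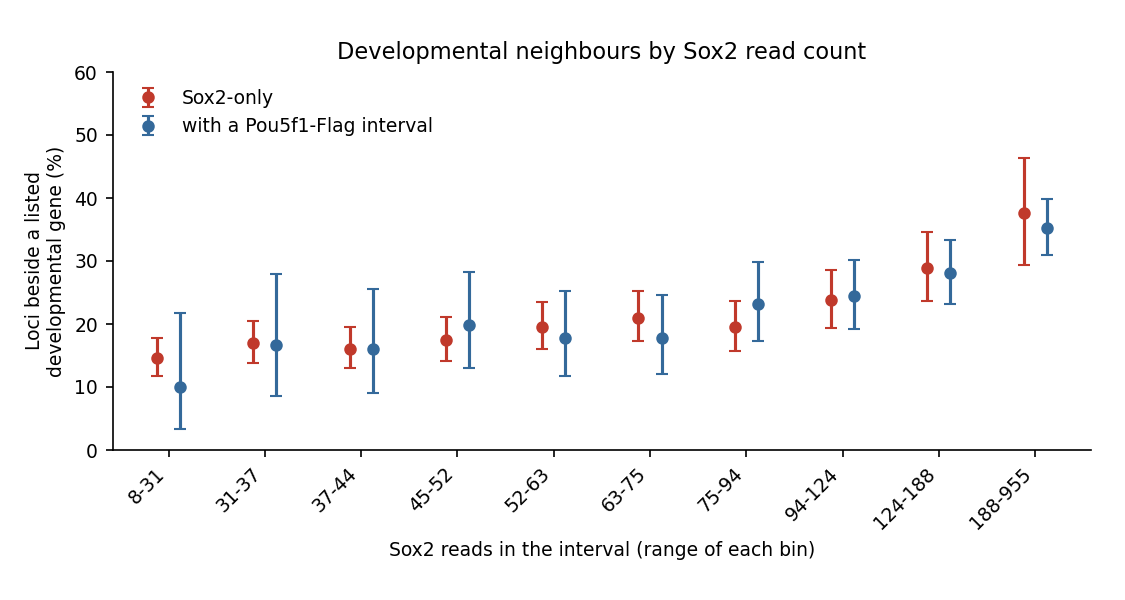
Share of loci beside a gene of the developmental lists (vertical axis, percent) by reads in the Sox2 interval (horizontal axis, range of each of 10 bins), for Sox2-only loci and Sox2 loci with a Pou5f1-Flag interval, with exact binomial 95% intervals over loci as bars. The shares are 14.6% and 10.0% in the weakest bin and 37.6% and 35.3% in the strongest.

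Read by list, the Sox2-only share of the Sox2 loci beside SoxB1, Pou and other early zygotic factors was 33 of 73 (45.2%, 33.5 to 57.3), against 69.1% of all Sox2 loci. Of the 14 genes of this list that Sox2 loci named, 11 had a Sox2-only locus and 2 had no other kind, beside 84.7% and 55.3% of all genes. foxd3, a forkhead repressor of pluripotent cells and neural crest, had 6 Sox2-only loci of 10, the strongest of 260 reads (chromosome 6, 31898629 to 31899129), and one of its other loci had 490. mycn had 7 of 12 with at most 153 reads, and klf17 2 of 3 with at most 190 reads. klf2b had a Sox2-only locus of 181 reads beside a shared one of 403. In foxd3, sox2, mycn and klf2b the strongest Sox2 locus was thus one with a Pou5f1-Flag interval, whereas in klf17 the Sox2-only locus had 190 reads and the shared one 133. Other Sox factors stood near all Sox2 loci, at 28 of 41 (68.3%, 51.9 to 81.9). Among them sox21a (1 locus, 228 reads) and sox21b (3 loci, at most 226 reads), of the SoxB2 group, had Sox2-only loci alone, and so did sox4a (4 loci, at most 169 reads).

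Anterior neural patterning genes had 90 Sox2-only loci of 143 (62.9%, 54.5 to 70.9). foxg1a, a forkhead factor of the telencephalon, had 8 Sox2-only loci of 9, the strongest of 212 reads, and its remaining Sox2 locus had 57. gbx2, of the hindbrain side of the midbrain boundary, had 4 of 6, the strongest of 248 reads, and its strongest other locus had 237. hesx1, an anterior homeobox repressor, had 1 of 2 with 250 reads, and the other had 125. The strongest locus was thus Sox2-only in foxg1a, gbx2, hesx1 and six3a.

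Notch and proneural genes had 67 Sox2-only loci of 101 (66.3%, 56.2 to 75.4). In the bin of strongest Sox2 loci they had 7 Sox2-only loci of 13, where all Sox2 loci had 133 of 592. her9 had 12 Sox2-only loci of 14 and her6, another Hes-related repressor, 7 of 10. ascl1a, a proneural bHLH factor, had 2 of 3, with a strongest of 290 reads against 124 in its shared locus. her3, a repressor in the early neural plate, had 3 of 5, with 280 reads against 510. her6 reached 117 reads in a Sox2-only locus and 441 in a shared one. The Hes-related genes therefore differed among themselves in which kind of locus was strongest.

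Non-neural ectoderm and neural crest genes had 57 Sox2-only loci of 74 (77.0%, 65.8 to 86.0), and 7 of 16 in the strongest bin. In that bin all Sox2 loci had 133 of 592. All 20 genes of this list that Sox2 loci named had a Sox2-only locus, and 10 had no other kind, where the shares over all genes were 84.7% and 55.3%. ets1 had 1 locus, of 304 reads, and msx3 had 3, of at most 264. msx1b had 8 Sox2-only loci of 10 and pax3a, a neural crest regulator, 7 of 9. tfap2a, an early ectodermal factor, had 4 of 6 (at most 259 reads, against 407 shared), and tp63, of the epidermis, 3 of 4 (234 against 174 reads). Pax, Lhx, Nkx, Tbx and related factors of later organs had a like share, 90 of 118 (76.3%, 67.6 to 83.6). Of the 36 genes of this list that Sox2 loci named, 22 had Sox2-only loci alone, beside 55.3% of all genes. Among these 22 were tbx2b (4 loci, at most 216 reads), hnf1ba (5 loci, 214 reads) and pou3f1 (3 loci, 205 reads).

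Among the signalling pathways the Bmp and dorsoventral genes had the lowest share, 38 of 82 (46.3%, 35.3 to 57.7), and 1 of 18 in the strongest bin. In that bin all Sox2 loci had 133 of 592. The strongest Sox2-only locus beside chrd, a secreted Bmp inhibitor, had 204 reads and its strongest shared locus 172. bmp4, a ligand, had 2 of 3 with at most 139 reads. vox, a ventral repressor, had 3 of 9 with at most 79 reads, against 740 in a shared locus. Fgf pathway genes had 42 of 76 (55.3%, 43.4 to 66.7), among them fgf17 with 2 of 6, spry2 with 7 of 10, and etv4, a target of the pathway, with 5 of 6. The Sox2-only loci of etv4 had at most 99 reads and its shared one had 406. Hox, retinoic acid and posterior genes had 50 of 87 (57.5%, 46.4 to 68.0). In this list meis2b, a Hox cofactor, had 5 of 6 (at most 235 reads, against 365 shared), and the 10 Sox2-only loci of pbx3b stood among 17 Sox2 loci of which 16 had Input within 10 kb.

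Wnt pathway genes had 93 of 145 (64.1%, 55.8 to 71.9), with 3 of 25 in the strongest bin. In that bin all Sox2 loci had 133 of 592. The Wnt genes given next were named for strong or many Sox2-only loci. axin2, a feedback inhibitor, had 6 of 9 (205 against 159 reads), tle3b had 6 of 8 (473 against 296 reads), and lef1, a nuclear effector, had 5 of 5 with at most 186 reads. Nodal, endoderm and mesoderm genes had 61 of 98 (62.2%, 51.9 to 71.8), among them tbxta, the notochord T-box factor, with 7 of 14 and noto with 7 of 11. Their Sox2-only loci reached 195 and 144 reads, and their shared ones 381 and 316.

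Contact genes and chromatin regulators stood near all Sox2 loci. Axon guidance and cell contact signalling had 88 of 129 (68.2%, 59.4 to 76.1). Adhesion, migration and matrix had 87 of 128 (68.0%, 59.1 to 75.9), and chromatin regulators had 72 of 105 (68.6%, 58.8 to 77.3). In the chromatin list 44 of the 72 lay beside suz12a, in the long stretch described below. Among axon guidance genes, nrp2b had 8 of 9 (at most 124 reads), ntn1a 7 of 10 (240 reads) and ephb3a, an Eph receptor, 5 of 6 (223 reads). The protocadherins pcdh18b and pcdh19 had 9 of 11 and 8 of 10. Not all genes of these lists stood so high, since plxna1b had 4 of 8 and cdh11 2 of 5. The Sox2 loci of ntn1a and pcdh19 spread over 1.13 and 1.07 Mb. Lists chosen for comparison were small. Ribosome, proteasome and translation genes had 21 of 27 (77.8%, 57.7 to 91.4), products of differentiated tissues 11 of 22 (50.0%, 28.2 to 71.8) and germ plasm and oocyte genes 4 of 6 (66.7%, 22.3 to 95.7). Intervals lay wholly below 69.1% for the early zygotic, Bmp, Fgf and posterior lists and for none of the others, and none lay wholly above it. A gene's loci are not independent. The median reads over all Sox2 loci of these 4 lists were 116, 95.5, 95 and 72, against 63 for all Sox2 loci. Over the other lists the medians ran from 62 for factors of later organs (share 76.3%) to 111.5 for germ plasm and oocyte genes (66.7%, of 6 loci). The part of read count in the shares of the lists was not tested.

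**Figure D4:**
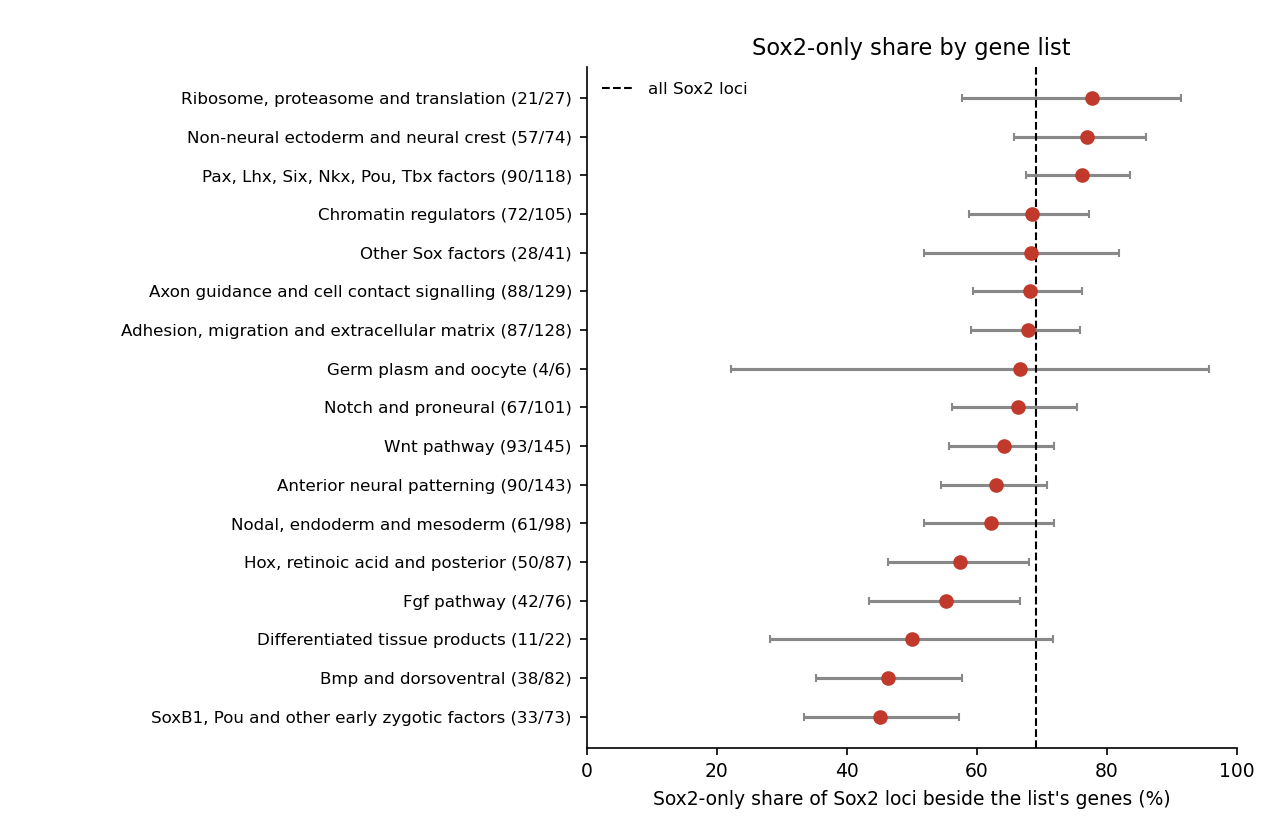
Sox2-only share of the Sox2 loci beside the genes of each of 17 lists (horizontal axis, percent; Sox2-only loci over all Sox2 loci in parentheses), with exact binomial 95% intervals over loci as bars. The dashed line marks 69.1% of all Sox2 loci, and the early zygotic list (45.2%) and the Bmp list (46.3%) stand lowest.

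Among genes with at least 3 Sox2 loci that were all Sox2-only, the most loci were 8, beside msi1b, an RNA-binding protein of neural progenitors, and pcsk5b, which flank the same 1.77 Mb stretch of chromosome 8. dbx1a, a homeobox factor of the neural tube, had 7 (at most 148 reads), fat1a, an atypical cadherin, 7 (147 reads), olig4 and ldlrap1b, which flank the same loci, 7 (81 reads), and cavin4b 7 (176 reads). Next, with 6, came ptprfb, a receptor phosphatase (at most 306 reads), bhlhe40 and camkvb (288 reads) and NM_001008621 (176 reads). These genes were not without Pou5f1-Flag intervals elsewhere around them. The late blastula and 512-cell lists named ptprfb beside 7 and 3 intervals and fat1a beside 3 and 8, and neither list named NM_001008621.

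Of the 858 genes with at least 3 Sox2-only loci, 44 were named beside no Pou5f1-Flag interval of either stage, a smaller share than the 15.6% of all genes named by Sox2 loci. The compared genes were not matched for number of loci or length of stretch. Of the 44, those given here were chosen after their values were seen. ephb3a had 5 Sox2-only loci and 1 Sox2 locus of 112 reads with a Pou5f1-Flag interval that is listed beside other genes. unc13a, a synaptic vesicle protein, had 4 of at most 244 reads over 56.1 kb of chromosome 22. neurod6b, a neuronal bHLH factor, had 4 of at most 95 reads. nrarpb, a feedback inhibitor of Notch, had 3 of at most 230 reads over 25.3 kb of chromosome 5. pax5, of the midbrain boundary, had 3 of at most 53 reads, and her8.2 3 of at most 52 reads. Both strong and weak loci thus stood beside genes that the Pou5f1-Flag lists did not name.

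Sox2-only loci often followed one another. A run was taken as consecutive Sox2-only loci with no other Input-free locus of any list between them. The 4089 loci formed 2736 runs, of which 1861 held 1 locus, 571 held 2, 286 held 3 to 5 and 18 held 6 to 8, and 54.5% of the loci were in a run of at least 2. Runs as such were not particular to Sox2. Loci of late blastula Pou5f1-Flag alone were in runs of at least 2 for 52.8%, with a longest run of 26, and those of 512-cell Pou5f1-Flag alone for 71.6%, with a longest of 14. The runs named below come from the 18 longest, a choice made after the values were seen.

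A run of 8 lay between zgc:103482 and gadd45gb.1, a stress-response gene of the Gadd45 family, on chromosome 21 (19378443 to 19532493). In order along the chromosome its loci had 79, 45, 101, 221, 44, 91, 93 and 71 reads over 154 kb. A run of 7 on either side of foxg1a (chromosome 17, 29083782 to 29213957) had 140, 91, 79, 42, 68, 212 and 61 reads over 130 kb. Both runs held 1 locus above 200 reads among weaker ones. A run of 7 around her9, reaching agrn (chromosome 23, 23680872 to 23749624), had 126, 141, 41, 37, 193, 69 and 30 reads over 68.8 kb, and the her9 locus of 376 reads lay outside it at lower coordinates.

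Other runs held 6 loci. Between cxcl18b and msx1b, 6 loci of 42, 42, 138, 39, 176 and 37 reads lay within 18.6 kb (chromosome 1, 49825008 to 49843633). Between camkvb and bhlhe40, a circadian bHLH repressor, 6 loci of 288, 79, 60, 107, 87 and 115 reads lay within 65.0 kb (chromosome 11, 36389367 to 36454334). In both runs 1 or 2 loci stood well above the rest. Between the neighbouring DNA methyltransferase genes dnmt3bb.2 and dnmt3bb.1, by contrast, 6 loci of 44 to 102 reads lay within 28.3 kb (chromosome 23, 17190694 to 17218945). Of the 18 runs, 3 had Input within 10 kb of 2 or 3 of their loci, and none of the runs with values here was among them.

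**Figure D5:**
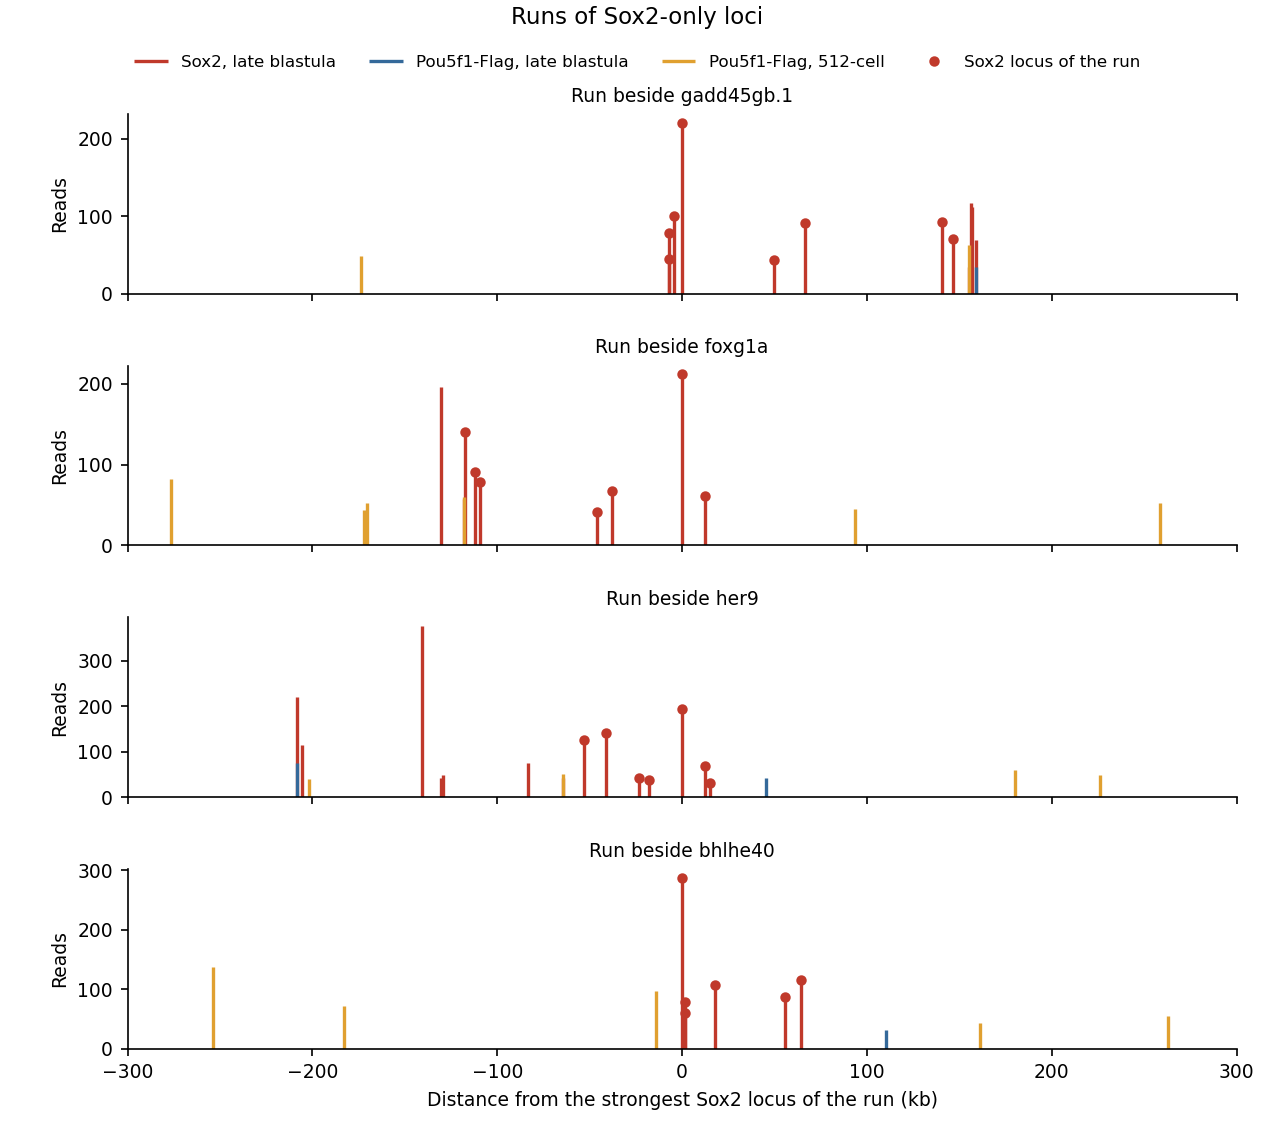
Intervals of the 3 ChIP lists around 4 runs of Sox2-only loci, beside gadd45gb.1, foxg1a, her9 and bhlhe40, as distance from the run's strongest locus (horizontal axis, kb) and reads in each interval (vertical axis). Dots mark the Sox2-only loci of the run, 8, 7, 7 and 6 in number, with no Pou5f1-Flag interval among them.

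Across the 25 numbered chromosomes the Sox2-only share ran from 63.2% on chromosome 1 to 75.1% on chromosome 9 (69.2 to 80.3, 187 of 249 loci). Chromosome 9 was the only one whose interval left out the whole share of 69.1%. Its lower end, 69.2%, was close to that share, and the 25 intervals were not adjusted for their number. The genes named beside most Sox2-only loci flanked very long stretches. met and zgc:113984 flanked 48 Sox2-only loci of 68 over 17.1 Mb of chromosome 25, suz12a 44 of 64 over 8.17 Mb of chromosome 3, and zgc:173619 32 of 37 over 6.24 Mb of chromosome 4. The loci of 17 genes spanned more than 2 Mb, and 195 Sox2-only loci lay beside them. These are counts over all the length listed beside 1 name. Among genes with shorter stretches, nop16 and rbm41 had 13 of 19 over 0.580 Mb, her9 had 12 of 14 over 0.224 Mb and gadd45gb.1 had 10 of 12 over 0.167 Mb.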

How the data were processed

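Sox2, Pou5f1-Flag (late blastula and 512-cell) and Input samples, 1 each, were deposited as interval lists; per the series design, Pou5f1 was sequenced in technical duplicates for depth. Per the file headers, each interval has the authors' counts of reads inside it and on each strand, a false discovery rate in percent, a Wilcoxon filter p-value, a normalized difference and a gene accession on each side. The deposited normalized difference is a fraction, the strand difference over all reads. Per the submitters' processing notes, CASAVA was used. Aligner, peak caller and thresholds: not given in the sources used here. Identifiers run to 7362 (Sox2), 13010 and 26225, so 1233, 5880 and 18478 numbered calls are not listed. The late Pou5f1-Flag list runs in 2 passes, of 1217 and 5913 intervals, and both were used. Zv9 is named in the late blastula identifiers. The 512-cell list names no build and was taken as the same, since 548 of 571 flanking pairs compared (96.0%) shared a gene. Both genes were the same in 407 of the 571 pairs.

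Intervals were joined in Python 3.11.15 (pandas 2.3.3, NumPy 2.4.6) after Input removal at 1 bp; a locus has the reads of its strongest Sox2 interval. The joins were tested on simulated intervals. Exact binomial intervals used SciPy 1.17.1. With 1 sample a group and loci chosen by these calls, no test was made. Symbols matched 3966 of 4205 accessions beside Sox2-only loci (94.3%) through a RefSeq table of assembly GRCz12tu, used for names alone. Members, gene lists and the naming rule were chosen with earlier results of these data known. The rule named the 20 strongest Sox2-only loci, the strongest and most frequent genes of each list, the genes with most loci, the 5 loci on each side of the overlap limit, and the 5 strongest beyond 100 kb. Of the genes so chosen, a part is given. No sequences are shown.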

Additional observations from a re-analysis of the deposited data

How the results depend on the processing

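No paired analysis was possible because each group has 1 sample. In all, 15 alternatives were computed, 4 of them chosen after seeing the data: Sox2 intervals with a false discovery rate of at most 0.01%, chromosome 4 left out, genes spanning over 2 Mb left out, and Pou5f1-Flag intervals over Input kept. A planned limit of 0% for Sox2 gave no value, since no Sox2 interval is listed at 0. The number of Sox2-only loci left the range within 1.5 times 4089 at a Sox2 rate of at most 0.01%, where it was 1425. The Sox2-only share was 66.4% with intervals within 1000 bp joined, 73.1% with centres required within 100 bp, 72.2% against the late blastula list alone, 90.7% against the 512-cell list alone, 85.4% with the first pass alone, 78.1% with Pou5f1-Flag rates of at most 1%, and 64.4% and 53.0% with Sox2 rates of at most 1% and 0.01%. The median reads were 59 against the 512-cell list alone, 57 with the first pass alone, and 64 and 94 at the Sox2 limits of 1% and 0.01%. The share within 10 kb of a Pou5f1-Flag interval was 26.6% with intervals within 1000 bp joined, 35.0% by centres, 23.0% against the late blastula list alone, 18.2% against the 512-cell list alone, 22.9% with the first pass alone, 19.3% with Pou5f1-Flag rates of at most 1% and 33.5% at the Sox2 limit of 0.01%. The share beside a developmental gene was 24.3% at that limit. Other shares and medians stayed within the main value's 95% interval, and other counts within 1.5 times. Lists with fewer calls leave more Sox2 loci alone by construction, so the share depends on how many Pou5f1-Flag intervals are listed. With 1 sample a group, unknown library depths and partial lists, a missing interval cannot be told apart from one below the calling limit.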
